A study of Mus musculus with 3 samples.

Results

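The family described here holds 7 of the 55196 genes measured: the ID inhibitor genes Id1, Id2, Id3 and Id4 and the E protein genes Tcf3, Tcf4 and Tcf12, chosen by name as complete gene families. They were followed in Ba/F3, a mouse haematopoietic line, often described as a pro-B line, that depends on interleukin-3 (IL-3). The samples were 3 separate cultures of Ba/F3 grown in vitro, all of 1 group, with no treatment contrast. All were grown in RPMI with 10% fetal calf serum, penicillin and streptomycin, and 0.2 ng/mL recombinant murine IL-3. Poly(A) RNA was read as 50-base single-end reads from strand-marked libraries. The study's title concerns IgA-dependent killing of tumour cells by neutrophils.

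E proteins are transcription factors of the basic helix-loop-helix (bHLH) class. They pair through the helix-loop-helix part and bind the DNA motif CANNTG, the E-box, through the basic stretch before it, either with each other or with tissue-restricted bHLH partners such as TAL1 and LYL1 in blood cells. ID proteins carry the helix-loop-helix but no basic stretch, so an E protein paired with an ID protein does not bind DNA. In blood formation E proteins, above all the Tcf3 products E12 and E47, are needed for the B lineage, and high ID levels hold progenitors back from it.

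The coding sequences below show what separates the inhibitors from the factors they inhibit. Each run holds the part of the helix-loop-helix that best matched between Id2 and Tcf12 (39 codons in the ID genes, 40 in the E protein genes) and the 15 codons before it. Capitals mark the codons for arginine and lysine among those 15. The runs were read from GENCODE M21 transcripts on GRCm38, 5′ to 3′ on the coding strand, and each lies within 1 coding exon. They are at chr12:25095783-25095944 (Id2, minus strand), chr4:136143960-136144121 (Id3, plus strand), chr13:48261651-48261812 (Id4, plus strand), chr10:80412840-80413004 and chr10:80410411-80410575 (Tcf3, minus strand) and chr9:71856318-71856482 (Tcf12, minus strand). Sequences of Id1 and Tcf4 are not shown.
Id2: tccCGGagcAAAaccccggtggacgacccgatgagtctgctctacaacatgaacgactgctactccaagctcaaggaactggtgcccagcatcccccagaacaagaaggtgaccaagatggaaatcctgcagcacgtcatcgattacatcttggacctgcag
Id3: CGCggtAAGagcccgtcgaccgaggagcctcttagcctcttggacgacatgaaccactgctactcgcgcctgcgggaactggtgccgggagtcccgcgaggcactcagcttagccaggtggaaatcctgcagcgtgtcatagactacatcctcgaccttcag
Id4: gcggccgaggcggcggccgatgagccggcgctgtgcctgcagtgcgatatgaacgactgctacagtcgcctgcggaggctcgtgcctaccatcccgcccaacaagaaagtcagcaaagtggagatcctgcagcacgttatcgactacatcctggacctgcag
Tcf3, upstream exon: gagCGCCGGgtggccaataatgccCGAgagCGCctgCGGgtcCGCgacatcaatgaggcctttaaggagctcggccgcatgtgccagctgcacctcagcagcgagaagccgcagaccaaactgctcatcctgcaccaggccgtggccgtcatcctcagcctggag
Tcf3, downstream exon: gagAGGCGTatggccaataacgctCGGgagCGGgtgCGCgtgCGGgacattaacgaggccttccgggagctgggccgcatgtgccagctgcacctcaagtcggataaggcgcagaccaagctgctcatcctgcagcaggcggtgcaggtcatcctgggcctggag
Tcf12: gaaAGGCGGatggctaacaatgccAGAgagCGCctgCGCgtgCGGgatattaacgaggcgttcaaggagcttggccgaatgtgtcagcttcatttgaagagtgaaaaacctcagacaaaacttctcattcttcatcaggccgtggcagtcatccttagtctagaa

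The 15 codons before the helix-loop-helix held 6 for arginine or lysine in Tcf3 and Tcf12. In Id2 and Id3 they held 2, and in Id4 they held 0. Within the helix-loop-helix the encoded residues were 79.5% identical between Id2 and Id4 and 61.5% between Id2 and Id3. Between Id2 and the E proteins they were 25.0 to 27.5% identical. The 10 Tcf3 coding transcripts kept by a filter on start codon, stop codons and protein length held 2 versions of this stretch. These versions came from alternative exons and were 82.5% identical to each other. The version in the upstream exon was 97.5% identical to Tcf12, and the other 85.0%. A count per gene sums the reads of E12 and E47, so their split was not measured.

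Depth was 32044889 reads in genes for culture 1, 33880292 for culture 2 and 37180883 for culture 3. Levels of a gene across cultures are given as CPM, the reads of a gene scaled to the total reads of its culture. Levels of different genes are compared as TPM, in which reads are first divided by the length of the union of a gene's annotated exons and then scaled to the same sum in each culture. Means are ± SD over the cultures (n = 3), and intervals of counting error do not cover duplicate reads, since reads carried no molecular identifiers. Detection required a level of 1 CPM or above in each of the 3 cultures. As a check of the label, all 8 haematopoietic markers were detected, led per length by Csf2rb2 and Csf2rb, the β chains of the IL-3 receptor. Of 8 fibroblast and stroma markers 0 were detected, with a summed level of 0.797 to 1.06 CPM and no read for Col1a2 and Lum. Of 8 T and NK cell markers only Cd3g was (summed level 4.06 to 4.56 CPM). Of 8 mature B cell markers Cd79b, Ighm and Cd79a were (31.5 to 34.5 CPM), with no read for Ms4a1. Of 8 macrophage markers Cd68, Adgre1, C1qb and Csf1r were (116 to 119 CPM), with no read for C1qa, Marco and Mrc1. Cd68 alone had a mean of 88.3 CPM. C1qb (1.47, 1.03 and 1.53 CPM) and Csf1r (1.78, 1.80 and 2.15 CPM) lay just above the 1 CPM limit. So did the B cell marker Cd79a (1.62, 1.77 and 1.86 CPM). In bulk RNA, fewer cells with a transcript and less transcript per cell cannot be told apart.

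Of the 7 genes, 5 were detected: Id1, Id2, Tcf3, Tcf4 and Tcf12. Among all genes 19.9% were detected, and among protein-coding genes 45.9%. The inhibitors were split, with Id1 and Id2 present and Id3 and Id4 at or below the limit of depth, while all 3 E protein genes were present. The set of 5 was equally large with detection at 0.5 or 5 CPM, at 1 TPM, in at least 1 culture, with other scalings and without any 1 culture.

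Id1 (ENSMUSG00000042745, chromosome 2, 152736251 to 152737410, plus strand) encodes an inhibitor widely known as a target of BMP signalling. It was read at 58.0, 55.7 and 77.8 CPM in cultures 1, 2 and 3 (1860, 1888 and 2893 reads), a mean of 63.9 ± 12.1. Culture 3 stood above the others, which lay close together. Per length Id1 was the highest of the family, at 174.5, 168 and 232 TPM, or 191 ± 35.1, the 92.5 percentile of detected genes. In the authors' deposited table the row with the symbol Id1 carries the identifier of Dennd6a. The authors' average on that row, 9.40 on the deposited log2 scale, therefore mixes both genes.

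Id2 (ENSMUSG00000020644, chromosome 12, 25093799 to 25097140, minus strand) encodes the inhibitor that innate lymphoid and NK cells need. It was read at 27.4, 27.3 and 27.7 CPM (877, 925 and 1030 reads), a mean of 27.5 ± 0.215. The 3 cultures lay closer together than counting noise alone would give on average: the coefficient of variation was 0.782%, against 3.25% expected from the mean number of reads. Its length-scaled level was 39.2 ± 0.0628 TPM, the 58.8 percentile of detected genes. Id1 was 4.46, 4.29 and 5.90 times Id2 per length in cultures 1, 2 and 3, so the Id1 share of all ID transcripts was 81.6, 81.1 and 85.5%.

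Id3 and Id4 were not detected. Id3 (ENSMUSG00000007872, chromosome 4, 136143497 to 136145755, plus strand), known for its roles in B and γδ T cells, had 2, 0 and 1 reads in cultures 1, 2 and 3. Id4 (ENSMUSG00000021379, chromosome 13, 48261228 to 48266026, plus strand), studied mainly in neural and germ cells, had 0 reads in every culture. A count of 0 allows up to 3 reads, so levels up to 0.0936, 0.0885 and 0.0807 CPM could have been missed. The 2 noncoding genes annotated across Id4, both on the other strand, also had 0 reads.

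Tcf3 (ENSMUSG00000020167, chromosome 10, 80409514 to 80433647, minus strand) encodes E12 and E47. It was read at 75.1, 81.1 and 98.8 CPM in cultures 1, 2 and 3 (2406, 2747 and 3675 reads), a mean of 85.0 ± 12.4. Culture 3 was again the highest, and cultures 1 and 2 were closer to each other than to it. At 64.8, 70.2 and 84.6 TPM, or 73.2 ± 10.2, it was the highest E protein gene per length and stood at the 77.0 percentile of detected genes.

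Tcf12 (ENSMUSG00000032228, chromosome 9, 71842688 to 72111871, minus strand) encodes HEB, the partner of E2A in early T cells. It was read at 119, 120 and 116 CPM (3801, 4077 and 4299 reads), a mean of 118 ± 2.38. Its exons cover 15529 bases, so per length it was 26.5 ± 0.699 TPM, the 45.5 percentile. The annotation places 11 other genes within its span, 7 on its strand. The most abundant of those had 70 reads over all cultures.

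Tcf4 (ENSMUSG00000053477, chromosome 18, 69343356 to 69689079, plus strand) encodes E2-2, the factor that defines plasmacytoid dendritic cells. It was read at 33.7, 33.5 and 31.4 CPM (1080, 1136 and 1166 reads), a mean of 32.9 ± 1.31. Per length it was the lowest detected member, at 4.18 ± 0.191 TPM and the 7.94 percentile. The symbols Tcf3 and Tcf4 were formerly also used for Tcf7l1 and Tcf7l2, which encode HMG box factors of the WNT pathway. Those genes are separate rows here, with 7.39 ± 0.956 CPM for Tcf7l1 and 0 reads for Tcf7l2.

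**Figure D1:**
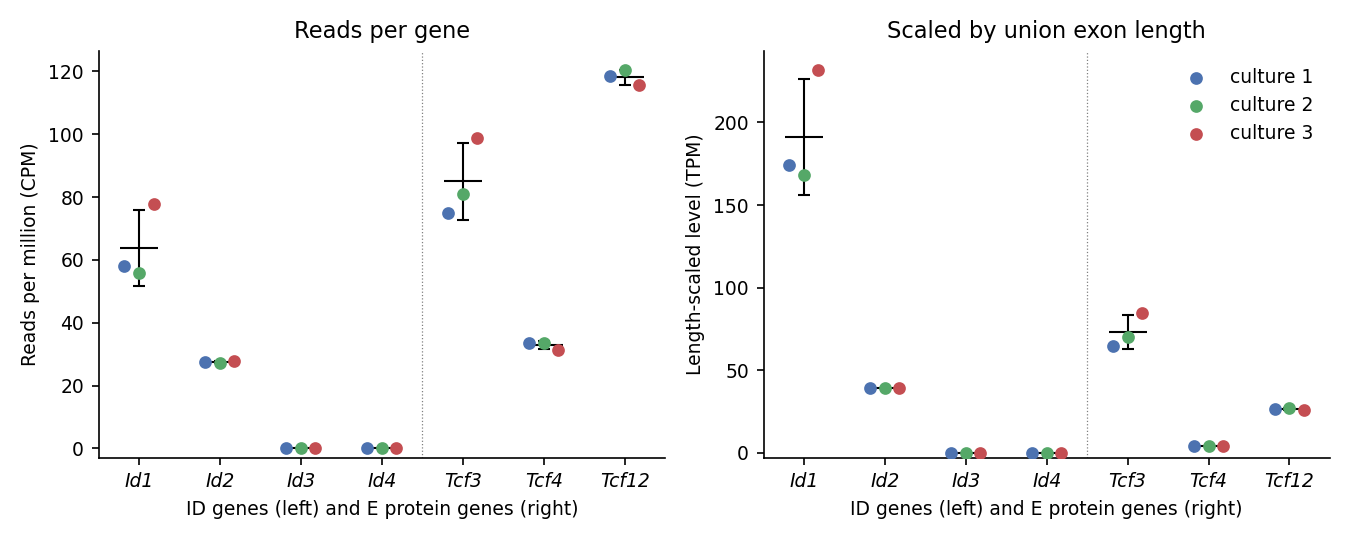
Levels of the 7 genes in each culture, as CPM on the left and as TPM by union exon length on the right, with points for cultures and bars for mean ± SD (n = 3). Culture 3 is the highest for Id1 (77.8 CPM) and Tcf3 (98.8 CPM), and Id3 and Id4 lie at or near 0.

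The order per length was Id1, Tcf3, Id2, Tcf12 and Tcf4. Each gene's lowest culture lay above the highest culture of the next, so no neighbours in this order overlapped. The length used matters for the genes with many transcripts. The annotation lists 62 transcripts for Tcf4 and 21 for Tcf12, against 3 for Id2 and 2 for Id1. Divided by the longest single transcript, Tcf12 was at 48.5 ± 1.32 TPM and Id2 at 36.0 ± 0.0286, and they changed places. Tcf4 was then at 9.90 ± 0.463 TPM and still last.

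Summed per union exon length, ID transcripts outnumbered E protein transcripts in every culture. The ID sum was 214, 207 and 271 TPM, and the E protein sum 95.8, 102 and 114 TPM in cultures 1, 2 and 3. Their ratio was 2.23, 2.04 and 2.37, a mean of 2.21 ± 0.167. It was 1.34 ± 0.118 by the longest transcript. In reads without a length correction, which do not compare genes of different length, it was 0.386 ± 0.0390. These are ratios of transcripts and not of proteins. Both lengths are the longest kind the annotation gives, and the ratio with shorter transcripts was not tested. Tcf4, Tcf12 and Tcf3 have 62, 21 and 14 annotated transcripts, so their levels depend most on this choice. Tcf3 made up 67.7, 69.1 and 74.0% of the E protein sum, Tcf12 27.8, 26.7 and 22.5%, and Tcf4 4.48, 4.22 and 3.46%. By the longest transcript the Tcf3 share was 55.9 ± 3.98% and the Tcf12 share 36.7 ± 3.17%.

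**Figure D2:**
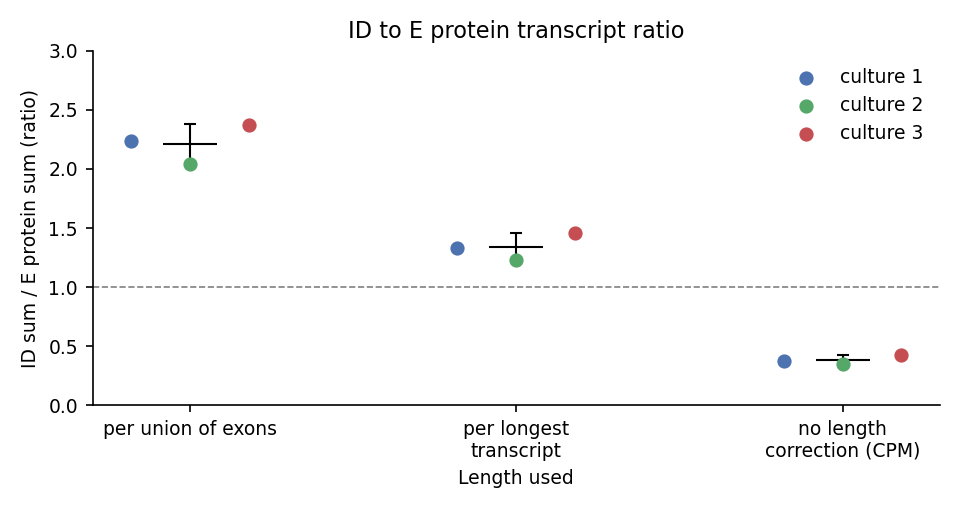
Ratio of the summed ID to the summed E protein level in each culture under 3 ways of treating gene length, with points for cultures, bars for mean ± SD (n = 3) and a dashed line at 1. The ratio is above 1 with either length (2.21 and 1.34) and below 1 without a length correction (0.386).

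Whether the cultures differed by more than counting noise was tested for each gene that averaged 10 reads or more. The test was a chi-square against Poisson noise, adjusted over all tested genes by the Benjamini-Hochberg method. Among the members Id1 (adjusted p = 1.65e-34, chi-square test) and Tcf3 (adjusted p = 2.01e-26) passed at 0.05, and both were highest in culture 3. Of the 13139 genes tested 32.7% passed, and 10.2% passed with culture 3 highest. Among genes of 500 to 5000 mean reads, the range in which the 5 members lie, 35.6% passed and 11.8% did so with culture 3 highest. The test compares 3 libraries and not conditions.

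For Id1 the highest culture was 1.40 times the lowest, which is more than in 94.9% of the 10125 genes that averaged 100 reads or more. For Tcf3 the same value was 1.32 times, more than in 92.2% of them, and the median gene had 1.08. Tcf4 (1.07 times, adjusted p = 0.292), Tcf12 (1.04 times, adjusted p = 0.320) and Id2 (1.01 times, adjusted p = 0.965) did not pass the chi-square test. Without culture 3 the Id1 call ended (1.04 times, chi-square test, adjusted p = 0.445), while Tcf3 still passed (1.08 times, adjusted p = 0.0323). The share of all genes passing without culture 3 was not recorded, so this Tcf3 call has no such share beside it. The ratio of Id1 to Tcf3 per length was 2.69, 2.39 and 2.74 in cultures 1, 2 and 3, lowest in culture 2. The ratio of Tcf3 to Tcf12 was 2.43, 2.59 and 3.29.

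The difference of culture 3 from cultures 1 and 2 varied with GC content. With genes split into 5 equal groups by the GC content of the longest transcript, the median log2 ratio of culture 3 to the mean of cultures 1 and 2 was -0.039 in the group lowest in GC and 0.061 in the group highest in GC. The median log2 ratio of culture 2 to culture 1 was 0.0023 and -0.013 in the same groups. Tcf3 (61.0% GC) lay in the highest group and Id1 (54.7%) in the next, while Tcf12 (44.4%), Id2 (45.2%) and Tcf4 (40.9%) lay in the lowest 2. After a curve fitted to GC content and transcript length had been subtracted, the log2 ratio of Id1 was 0.42, beside 0.45 before, and that of Tcf3 was 0.24, beside 0.34. Id2 stood at 0.075 after removal and 0.019 before, Tcf12 at 0.020 after and -0.047 before, and Tcf4 at -0.034 after and -0.10 before. The curve accounted for 11.5% of the variance of the log2 ratio over genes. The mitochondrial share of reads also differed, at 1.68, 1.31 and 1.04% in cultures 1, 2 and 3, and its part in the Id1 and Tcf3 differences was not tested.

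**Figure D3:**
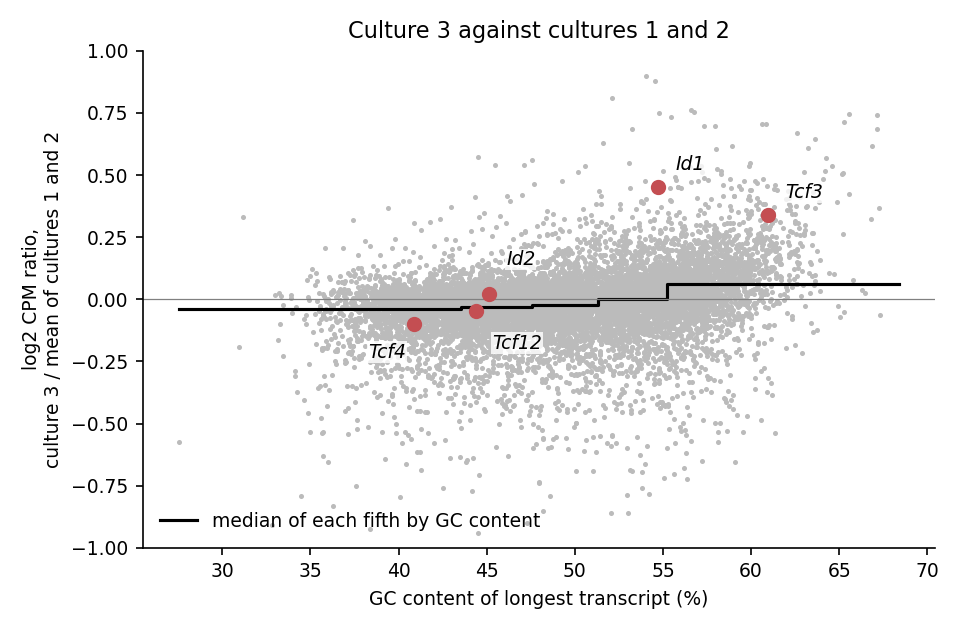
Log2 ratio of CPM in culture 3 to the mean of cultures 1 and 2 against the GC content of the longest transcript, for 10119 genes (grey; 2 lie outside the plotted range) with the 5 detected members in red and a black line for the median of each of 5 GC groups. Id1 (0.45) and Tcf3 (0.34) lie well above the medians, and Id2, Tcf4 and Tcf12 lie near 0.

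The bHLH partners with which E proteins bind DNA were detected for 2 of 32 genes, Lyl1 and Tal1. Lyl1, a blood stem cell factor, was at 182, 176 and 199 CPM and 359 ± 20.5 TPM. Tal1, the SCL factor of blood stem cells and erythroid cells, was at 369, 347 and 353 CPM and 283 ± 9.24 TPM. Summed per length they were 6.75, 6.10 and 5.78 times the E protein genes in cultures 1, 2 and 3, and 3.66 ± 0.223 times by the longest transcript. Of the other 30 genes, 23 had 0 reads, among them Atoh1 of the nervous system and Atoh8. Both detected partners passed the chi-square test between cultures. Lyl1 was highest in culture 3, at 1.13 times the lowest (chi-square test, adjusted p = 3.99e-11). Tal1 was highest in culture 1, at 1.06 times the lowest (chi-square test, adjusted p = 5.52e-05). The Tal1 spread was below the 1.08 of the median gene that averaged 100 reads or more.

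Of 9 cofactors that bridge bHLH pairs to GATA factors, 6 were detected. Gata2, the GATA factor of stem and mast cells, led at 397 ± 12.1 TPM. The LDB1 stabiliser gene Ssbp3 was at 109 ± 0.786, Gata1 at 95.2 ± 1.62 and the LIM-only gene Lmo4 at 67.0 ± 1.004 TPM. Lmo2, which links TAL1 and E proteins to LDB1 in blood cells, was much lower at 7.18 ± 0.290 TPM, and is named here after its value was seen. Gata3, Lmo1 and Ssbp2 had 0 reads. Coactivators and corepressors were detected for 11 of 12. Cbfa2t3, which encodes the ETO2 corepressor recruited by TAL1 and E proteins, was at 200 ± 7.23 TPM, the acetyltransferase gene Kat2a at 124 ± 4.13, Hdac2 at 118 ± 3.27 and Ncor1 at 86.6 ± 5.48. Runx1t1, the ETO gene, had 1 read over all cultures.

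E-box repressors compete for the same DNA motif, and 3 of 5 were detected. Zeb1 stood at 32.2 ± 1.06, Snai3 at 13.1 ± 0.394 and Zeb2 at 2.40 ± 0.0823 TPM. Snai2 had 0 reads and Snai1 had 3, 1 and 1. Of the 3 detected repressor genes 0 passed the chi-square test between cultures, beside 32.7% of all genes tested.

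Of 22 BMP and TGF-β pathway genes listed as inputs to Id genes, 11 were detected. Tgfb1 led at 108 ± 8.87 TPM, followed by the shared mediator Smad4 at 54.2 ± 2.04, the receptor gene Tgfbr2 at 39.6 ± 1.44 and the BMP mediator Smad5 at 36.7 ± 1.47. The BMP ligand genes Bmp2 and Bmp4 and the type I BMP receptor gene Acvr1 had 0 reads. Bmp6, Bmp7 and Bmpr1a also had 0 reads and Bmpr1b had 1 over all cultures; these 4, Acvrl1, Bmpr2 and Acvr2b are named after their values were seen. Acvrl1, a further type I receptor gene, had 7, 13 and 13 reads in cultures 1, 2 and 3. The type II receptor genes that BMP ligands use were split. Bmpr2 was detected at 38.7, 44.3 and 41.9 CPM (chi-square test, adjusted p = 0.00885) and Acvr2b at 6.90, 6.11 and 6.29 CPM. Acvr2a, also named after its values were seen, had 0, 0 and 1 reads in cultures 1, 2 and 3 and was not detected.

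Of 11 other genes with reported effects on Id genes, 7 were detected. Myc was at 505 ± 12.8, Stat5b at 60.2 ± 3.25 and Stat5a, which like Stat5b encodes a factor activated by the IL-3 receptor, at 29.6 ± 0.229 TPM. Cebpb, which encodes a C/EBP factor, was at 12.5, 15.7 and 22.7 CPM and 39.2 ± 11.8 TPM, highest in culture 3 (chi-square test, adjusted p = 3.82e-23). Stat5b was also highest in culture 3, at 101 CPM beside 90.1 and 96.0 (chi-square test, adjusted p = 9.75e-05). The other 2 inputs that passed were highest in culture 1. Myc was at 405, 386 and 391 CPM (chi-square test, adjusted p = 0.00211). Egr2, an early growth response factor gene named here after its values were seen, was at 15.6, 12.2 and 11.9 CPM (chi-square test, adjusted p = 1.55e-04). Cebpa had 0 reads, and Hes1 and Klf17 had 1 read each over all cultures.

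All 7 genes of ID protein turnover were detected. Cdc20, an activator of the anaphase-promoting complex, was at 252 ± 7.24, Usp1, whose product removes ubiquitin from ID proteins, at 163 ± 3.25, Cdc16 at 71.98 ± 2.04 and Fzr1, the CDH1 activator gene, at 64.1 ± 3.02 TPM. Of 11 genes for partners of ID proteins outside the bHLH class, 7 were detected. Rb1, whose product binds ID2, led at 108 ± 3.34 TPM, with Rbl1 at 58.0 ± 2.35, Rbl2 at 50.8 ± 1.66 and Elk3 at 42.0 ± 1.62. Pax2 had 0 reads, and Ets1 and Pax8 had 2, 2 and 0 each.

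Among 30 lymphoid genes that E proteins activate in B or T cell precursors, 6 were detected, or 20.0%, beside 19.9% of all genes and 45.9% of protein-coding genes. The chemokine receptor gene Cxcr4 was highest at 335 ± 14.8 TPM, then Gfi1b at 141 ± 5.00, the B cell receptor gene Cd79b at 47.4 ± 2.80 and Notch1 at 7.57 ± 0.310. Of the 24 genes not detected, 11 had 0 reads, Bcl11b and Blnk among them.

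Of 11 cell cycle genes linked to the balance of ID and E proteins, 7 were detected, at a median of 171 TPM, beside 30.1 for all detected genes. Cdkn1a, the p21 gene that E proteins activate, was at 495 ± 12.5, Cdk6 at 273 ± 10.6, Ccnd2 at 247 ± 7.81 and Ccnd3 at 171 ± 13.6 TPM. Of the other inhibitor genes, Cdkn1b was detected at 111 ± 8.08 and Cdkn2c at 64.7 ± 2.54 TPM. Both are named after their values were seen. The inhibitor genes not detected were Cdkn2a with 0 reads, Cdkn2b with 0, 1 and 1, and Cdkn1c with 3, 2 and 3. In all, 66 of the 147 genes on the 10 function lists were detected, or 44.9%, near the 45.9% of protein-coding genes. On these lists 28 of 69 tested genes (40.6%) passed the chi-square test between cultures, beside 32.7% of all tested genes and 37.1% of detected genes. They were 2 of 2 bHLH partners, 2 of 6 bridging cofactors, 5 of 11 coactivators or corepressors, 0 of 3 repressors, 3 of 12 BMP or TGF-β genes and 4 of 7 other inputs. The remainder were 3 of 7 turnover genes, 2 of 7 further ID partners, 1 of 7 lymphoid genes and 6 of 8 cell cycle genes. The test calls smaller changes in genes with more reads, and these shares are not matched for read number. The detected cell cycle genes had a median of 431 CPM, beside 39.7 for all detected genes.

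**Figure D4:**
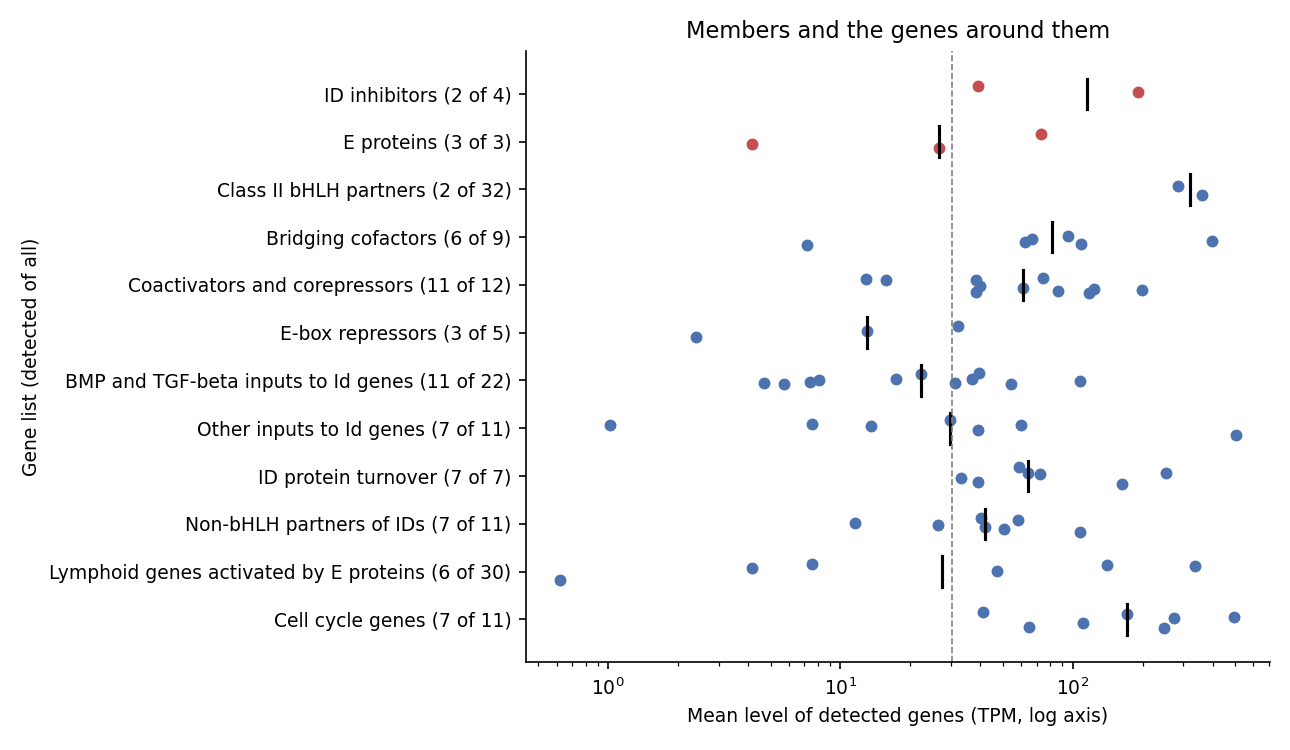
Mean level of each detected gene in TPM (log axis), by list, with the detected number of all in brackets, members in red, other lists in blue, a black bar for the list median and a dashed line at the median of all detected genes (30.1 TPM). Lyl1 and Tal1, the only 2 of 32 bHLH partners detected, lie above all 5 members.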

How the data were processed

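HISAT2 alignment to GRCm38 and counting with the in-house pipeline GenSum are recorded in the submitters' processing notes and the design text. Not given in the sources used here are the tool versions, the strand setting in counting and the annotation release. Values in the table deposited by the authors are log2(reads per 10000000 + 1), since every column summed to 10000000 once the log was reversed. Whole reads were recovered for 100% of values within 0.01 of a whole number.

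Identifier and symbol pointed to a common gene in 0 of 23001 rows with reads. Cultures 1 and 2 were therefore read by identifier and culture 3 by its symbol and coordinates, joined through GENCODE M21 (GRCm38): 54870 rows by exact coordinates, all 7 members among them, 391 by a symbol naming 1 gene, and 225 not matched. Among the 120 genes highest in cultures 1 and 2 (log2 value over 13), culture 3 then differed from cultures 1 and 2 by a median of 0.058, beside 0.0508 between cultures 1 and 2. On the rows as deposited it differed by 0.576.

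TPM used union exon lengths. The chi-square test ran on all 13139 genes that averaged 10 reads or more. On simulated Poisson reads for those genes, changes of 1.2, 1.5, 2 and 4 times in 1 culture were called for 58.0%, 76.0%, 92.0% and 98.0% of 50 genes each, and 0.039% of unchanged genes were called. The simulation held no variation between libraries beyond Poisson noise, so the 0.039% does not carry over to the real libraries. The planned unit was read counts and no count package was used. Named genes were all members, up to 4 detected genes with the highest TPM and up to 3 undetected genes of each list, some of which are not reported here. With 3 cultures, no genes were named for a likeness to the members across samples. Members and lists were chosen with earlier results of these data known. Replicates were separate cultures with 1 library each, and a p-value here compares those libraries. Scripts used Python 3.11.15, numpy 2.4.6, scipy 1.17.1, pandas 2.3.3 and Biopython 1.88.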

Additional observations from a re-analysis of the deposited data

How the results depend on the processing

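The ratio of ID to E protein transcripts was 2.21 by union exon length, 1.34 by the longest annotated or the longest protein-coding transcript, and 0.386 without a length correction, where its side of 1 changed. It ranged from 2.14 to 2.30 with each culture left out in turn. On the rows as deposited it was 2.19, but culture 3 there holds reads of other genes, so this is no check of the ratio. Of the members, 2 differed between cultures, beside 32.7% of all genes tested, and 1 to 2 did with each culture left out in turn. The loss came without culture 3, where Id1 no longer passed. The share of all genes passing with a culture left out was not recorded. With culture 3 on the rows as deposited, the rows of Id1 (1.18 times, chi-square test, adjusted p = 9.18e-07) and Tcf3 (1.13 times, adjusted p = 1.41e-04) also passed. Culture 3 on those rows holds the reads of Polr3k and Sptlc2, so this is no check of the Id1 and Tcf3 calls. Rows of that table are sorted by the authors' average, so distance alone does not separate the row orders at lower levels: over genes with a mean of at least 100 reads the median difference of culture 3 was 0.0659 matched and 0.0581 as deposited. The number of detected genes on the function lists was 61 to 66 over the alternatives run for it. These were detection limits, row order and cultures left out, not the other scalings. Row order is no check of this count, since culture 3 on the deposited rows holds reads of other genes. The removal of the GC and length trend was chosen after seeing the data. Length scaling rests on annotated exons, not on the transcripts these cells use, and Id3 and Id4 are limited by depth. No paired analysis was possible because all samples form 1 group.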
